A study of Mus musculus with 6 samples.

Results

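The nuclear genes for the subunits of respiratory complex I were followed in the cerebral cortex of FAD5x and Control mice. Members were the protein-coding genes whose symbol begins with Ndufa, Ndufb, Ndufc, Ndufs or Ndufv followed by a number, plus Ndufab1, and assembly factors and pseudogenes were left out. This rule took 38 of the 47728 genes in the deposited count table, and all 38 passed the filter on low counts. Of these, 36 encode subunits of complex I. The others, Ndufa4 and Ndufa4l2, carry the name but are grouped apart, since Ndufa4 is now placed in complex IV. Values given over 38 members include both of them. Ndufb1 was not analysed here.

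FAD5x mice model Alzheimer's disease through human transgenes bearing mutations of its familial form, which a Thy1 promoter cassette drives in neurons, and the Control group is wildtype C57BL/6. Each group had 3 RNA sequencing libraries of flash frozen cortex, 1 per sample. Age, sex and colony are not given in the labels, and no agent is named for either group. Whether each library is a different animal is not stated, so the p-values speak only to the spread among these 6 libraries, part of which may be technical. The library names of FAD5x replicates 1 and 2 share a number, and the labels do not say whether both came from 1 animal. Their counts differed no less than those of other FAD5x libraries (chi-square over degrees of freedom 62.8, where replicate 3 gave 40.9 with replicate 1 and 59.7 with replicate 2). This value also depends on depth and on the tissue taken, so it cannot tell 1 animal from 2. Both entered as separate samples, and if they came from 1 animal the p-values are too small.

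Complex I is the entry point of the mitochondrial respiratory chain. Its peripheral arm takes electrons from NADH through a flavin and a row of iron-sulfur clusters to ubiquinone, and its membrane arm pumps protons. The core subunits carry out catalysis and are split between the nuclear and the mitochondrial genome, while the accessory subunits, all nuclear, surround and stabilise the core. Neurons depend heavily on oxidative phosphorylation, and complex I is a much studied component of brain mitochondria in models of neurodegeneration.

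Total counts were 17363946 to 24137936 per library, and genes of the mitochondrial genome took 7.03% to 10.3% of them. In the FAD5x libraries Thy1, the gene whose promoter drives the transgenes, was higher by a log2 fold change of 1.62 ± 0.34 (standard error, SE; adjusted p = 0.0456). A pair of libraries stood apart in striatal markers or sex-linked genes. The summed level of 5 striatal neuron markers was 774 CPM (the count as a share of the scaled library size) in FAD5x replicate 1 and 64.5 to 164 CPM in the other 5 libraries. In Control replicate 1, Xist had 3 counts and the Y-linked genes 3124, against 10346 to 22631 and at most 9 in the others. The median of the members and each called member are also given without this pair. Other libraries stood apart in other markers. Gfap was at 129 CPM in FAD5x replicate 2, against 1508 and 914 CPM in FAD5x replicates 1 and 3. The summed level of 4 blood cell markers was 36.3 CPM in Control replicate 3 and 157 to 251 CPM in the other libraries. In bulk tissue, fewer cells of a type and less RNA per cell cannot be told apart.

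Complex I subunit messages were slightly more abundant in FAD5x cortex, by a median of 1.28-fold. Of 38 members, 37 had a log2 fold change above 0, against 51.5% of all 17074 genes tested, and Ndufs4 alone was below it. The median log2 fold change of the members was 0.35 (quartiles 0.20 and 0.47, range −0.02 to 0.68), beside 0.02 for all genes tested (quartiles −0.25 and 0.28). Complex I messages are short, and genes of 500 to 1000 bases had a median of 0.21. With length and GC trends taken out of each library the members' median was 0.22 and 31 of 38 were above 0. Of the 38, 2 members, Ndufb8 and Ndufa13, rose past an adjusted p of 0.05 (edgeR quasi-likelihood test with Benjamini-Hochberg adjustment over all genes). That is 5.26% of the members, where 1.76% of all genes tested were called higher and 1.39% lower. No member fell, whether by edgeR, limma-voom or DESeq2, and 0 members were lower at an unadjusted p under 0.05. At an unadjusted p under 0.05, 21 members were higher, against 11.2% of all genes. At an adjusted p under 0.1, 7 members were higher, against 3.99% of all genes, and DESeq2 called 7 members at 0.05, against 4.47% of all genes it tested. The number risen by edgeR was 0 without FAD5x replicate 1, 0 without any 1 of the Control libraries, 0 without FAD5x replicate 1 and Control replicate 1 together, and 1, Ndufb8, without FAD5x replicate 2 or 3. With FAD5x replicates 1 and 2 summed as 1 sample it was 2, Ndufb8 (adjusted p = 0.0225) and Ndufa13 (adjusted p = 0.0463).

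In 27 of 38 members every FAD5x library was above every Control library, which held for 14.1% of all genes. The reverse order was found in 0 members and in 13.2% of all genes. The summed level of the 38 members was 2034, 2420.0 and 2443 CPM in the FAD5x libraries (replicates 1, 2 and 3) and 1817, 1825 and 1883 CPM in those of Control. The groups did not overlap in this sum, and FAD5x replicate 1 was nearest to the Control libraries. That library was the lowest of its group in 33 members and the highest in 0. The median member stood 0.19, 0.42 and 0.43 above the Control mean on the log2 scale in FAD5x replicates 1, 2 and 3, and between −0.02 and 0.03 in the Control libraries. Without FAD5x replicate 1 the members' median log2 fold change was 0.41, without Control replicate 1 it was 0.31, and without both it was 0.41.

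**Figure D1:**
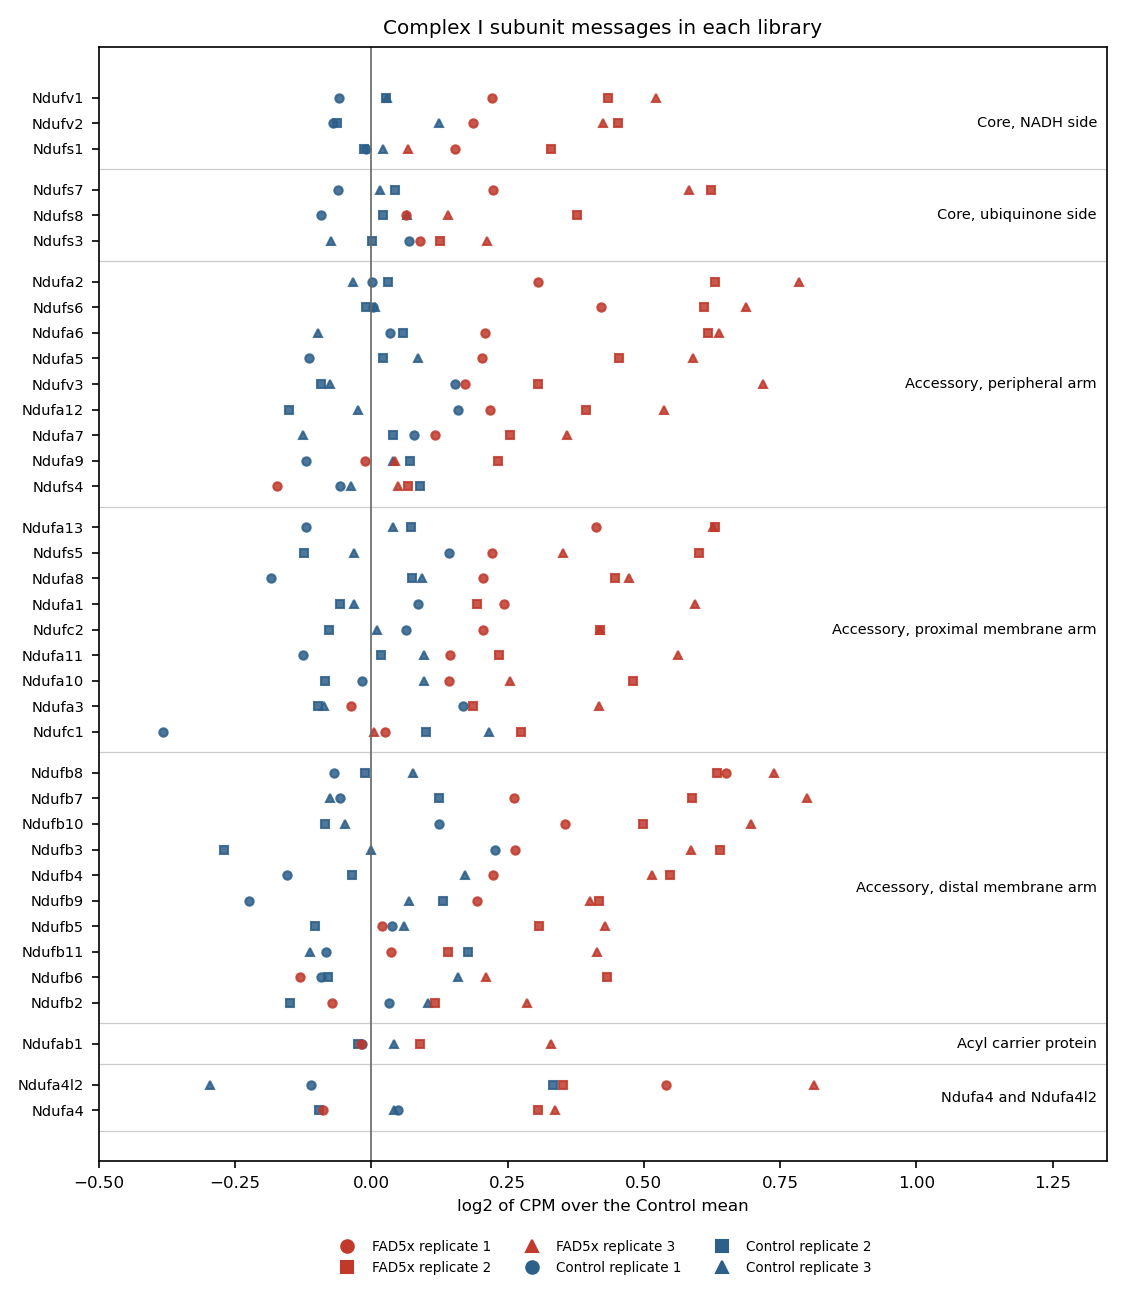
Level of 37 of the 38 members in each library, as log2 of CPM over the mean of the 3 Control libraries, with members grouped by their place in the complex. Red marks are FAD5x and blue marks Control, with 1 shape per replicate number. In 26 of the members drawn all red marks lie to the right of all blue ones, and the red circles (FAD5x replicate 1) are the leftmost red marks in 32.

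The 7 nuclear core subunits were all above 0, with a median log2 fold change of 0.28, and none passed the test. In 6 of the 7 the groups did not overlap, against 14.1% of all genes with FAD5x higher. Ndufv1 binds the flavin and the NADH, and is the point where electrons enter. In the order of replicates 1, 2 and 3, kept below, it stood at 112, 130.0 and 138 CPM in the FAD5x libraries and at 92.3, 98 and 98.2 CPM in those of Control. All FAD5x libraries lay above all Control libraries, at a log2 fold change of 0.40 ± 0.13 (SE; adjusted p = 0.129). Ndufv2, which holds an iron-sulfur cluster beside the flavin, was at 83.3, 100.1 and 98.3 CPM against 69.7, 70.1 and 79.8 CPM (log2 0.36 ± 0.13; adjusted p = 0.160). Ndufs1, the large iron-sulfur subunit next in the electron path, was at 113, 128 and 107 CPM against 101, 101 and 103 CPM. Its Control libraries were nearly equal and its lowest FAD5x library was close to them (log2 0.19 ± 0.12; adjusted p = 0.425).

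Electrons then reach ubiquinone through 4 nuclear core subunits, and here the median log2 fold change was 0.24. Ndufs7 carries the last iron-sulfur cluster before ubiquinone and had the largest difference among the core subunits. It was at 67.4, 89.0 and 86.5 CPM in the FAD5x libraries and 55.4, 59.5 and 58.4 CPM in those of Control, with no overlap (log2 0.49 ± 0.14; adjusted p = 0.0958). Ndufs8, which holds a pair of iron-sulfur clusters, was at 48.0, 59.7 and 50.7 CPM against 43.1, 46.7 and 48.1 CPM. It was the core subunit whose groups overlapped (log2 0.20 ± 0.13; adjusted p = 0.413). Ndufs3, an early piece of the assembly of this arm, was at 65.9, 67.6 and 71.8 CPM against 65.0, 62.0 and 58.9 CPM, the smallest core difference (log2 0.14 ± 0.11; adjusted p = 0.5).

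Among the 9 accessory subunits of the peripheral arm, 8 were above 0, with a median log2 fold change of 0.42. In 7 the groups did not overlap, against 14.1% of all genes with FAD5x higher. None of the 9 passed the test. Ndufa2, a small subunit with a thioredoxin-like fold bound to Ndufs1, had the largest difference of the group. It was at 29.3, 36.7 and 40.8 CPM in the FAD5x libraries and 23.7, 24.2 and 23.1 CPM in those of Control (log2 0.59 ± 0.15; adjusted p = 0.0727). DESeq2 called it (adjusted p = 0.0255). Ndufs4, whose loss causes a Leigh-like encephalopathy in mice, lay at the other end. Its levels were 33.4, 39.5 and 39.0 CPM in the FAD5x libraries and 36.2, 40.1 and 36.7 CPM in those of Control, so that the groups were interleaved. The log2 fold change of Ndufs4 was −0.02 ± 0.12 (adjusted p = 0.962), and it was 0.06 without FAD5x replicate 1 and 0.03 without Control replicate 2.

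The 9 accessory subunits of the proximal membrane arm were all above 0, with a median log2 fold change of 0.35. In 7 the groups did not overlap, against 14.1% of all genes with FAD5x higher. Ndufa13 (ENSMUSG00000036199), also known as Grim19 for its part in interferon and retinoic acid induced cell death, rose 1.47-fold. Its level was 54.2, 63.1 and 62.9 CPM in the FAD5x libraries and 37.5, 42.9 and 41.9 CPM in those of Control, or 60.1 ± 5.08 against 40.7 ± 2.86 CPM (mean ± SD, n = 3 per group). The lowest FAD5x library was above the highest Control library. The log2 fold change was 0.56 ± 0.12 and the adjusted p was 0.0476, just inside the threshold. It was 0.0585 with limma-voom, 0.0654 when scaled by library totals and 0.160 once length and GC trends were removed (log2 0.32). With any 1 of the 6 libraries left out, the adjusted p of Ndufa13 was 0.0545 to 0.204, and it was 0.0682 without FAD5x replicate 1, 0.204 without Control replicate 1 and 0.243 without both. Ndufc1, a short single-pass membrane subunit, had the smallest difference of this group. It was at 29.9, 35.5 and 29.5 CPM in the FAD5x libraries and 22.5, 31.5 and 34.1 CPM in those of Control, with Control replicate 1 well below the rest. Its log2 fold change was 0.11 ± 0.18 (adjusted p = 0.773) and was −0.05 without Control replicate 1.

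The 10 accessory subunits of the distal membrane arm were likewise all above 0, with a median log2 fold change of 0.39. In 6 the groups did not overlap, against 14.1% of all genes with FAD5x higher. Ndufb8 (ENSMUSG00000025204), an accessory subunit whose protein is lost when complex I fails to assemble and which therefore serves as a common antibody target for the complex, rose 1.6-fold. Its level was 48.3, 47.8 and 51.3 CPM in the FAD5x libraries and 29.3, 30.5 and 32.4 CPM in those of Control, or 49.1 ± 1.90 against 30.8 ± 1.56 CPM (mean ± SD, n = 3 per group). Both groups were tight and far apart, and FAD5x replicate 1 was not low for this gene. The log2 fold change of 0.68 ± 0.11 was the largest among the members (adjusted p = 0.0211). With each library left out in turn the log2 fold change stayed between 0.64 and 0.72, but the adjusted p was 0.0579 without FAD5x replicate 1, 0.112 without Control replicate 1, 0.103 without Control replicate 2, 0.0740 without Control replicate 3 and 0.230 without both replicates 1. It was 0.0158 without FAD5x replicate 2 and 0.0386 without FAD5x replicate 3. Ndufb2, at the other end of this group, was at 16.1, 18.3 and 20.6 CPM against 17.3, 15.2 and 18.2 CPM, with overlap (log2 0.12 ± 0.15; adjusted p = 0.708).

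The remaining members with an adjusted p under 0.1 were named after their values were seen. They were Ndufs6 of the peripheral arm (log2 0.58 ± 0.14; adjusted p = 0.0661), Ndufb10 (log2 0.52 ± 0.13; adjusted p = 0.0710) and Ndufb7 (log2 0.57 ± 0.16; adjusted p = 0.0942), both of the distal membrane arm. Together with Ndufa2 and Ndufs7 they were the members that DESeq2 called beyond Ndufb8 and Ndufa13. Ndufs6 holds a zinc site at the joint between the NADH and ubiquinone ends of the peripheral arm. Its Control libraries were nearly identical, at 13.3, 13.1 and 13.3 CPM, and its FAD5x libraries were at 17.7, 20.2 and 21.3 CPM. Ndufb7 and Ndufb10 carry paired cysteines and are folded in the intermembrane space.

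Ndufab1, the mitochondrial acyl carrier protein, which is bound in both arms of the complex and also serves fatty acid synthesis, was at 45.7, 49.2 and 58.2 CPM in the FAD5x libraries and 45.7, 45.5 and 47.6 CPM in those of Control. FAD5x replicate 1 lay within the Control range (log2 0.14 ± 0.13; adjusted p = 0.573). Ndufa4 was the most abundant of the 38 messages per length, at 223 CPM per kilobase in FAD5x and 194 CPM per kilobase in Control. Its levels were 112, 147 and 149.7 CPM against 123, 111 and 122 CPM, so FAD5x replicate 1 again lay within the Control range (log2 0.20 ± 0.15; adjusted p = 0.491). Ndufa4l2, its hypoxia-inducible paralog, was the least abundant per length, at 2.86 CPM per kilobase in FAD5x and 1.91 CPM per kilobase in Control. It was at 2.60, 2.28 and 3.13 CPM against 1.65, 2.25 and 1.45 CPM, with a wide error (log2 0.58 ± 0.32; adjusted p = 0.341).

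**Figure D2:**
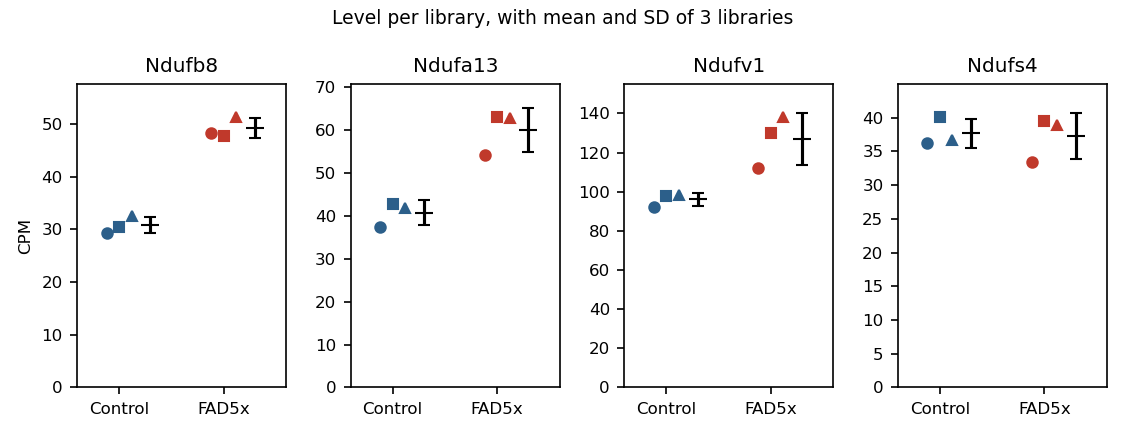
Level in CPM of 4 members in each library, with Control in blue, FAD5x in red, circles, squares and triangles for replicates 1, 2 and 3, and black bars for the mean and SD of 3 libraries. Ndufb8, Ndufa13 and Ndufv1 have no overlap between groups, while the groups of Ndufs4 are interleaved around 37.7 CPM in Control and 37.3 CPM in FAD5x.

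Ndufa1 and Ndufb11 are the X-linked members, and mutations in either cause complex I disease in people. Ndufa1, needed for the membrane arm, was at 20.2, 19.5 and 25.7 CPM in the FAD5x libraries and 18.1, 16.4 and 16.7 CPM in those of Control (log2 0.35 ± 0.15; adjusted p = 0.229). Ndufb11 was at 49.2, 52.9 and 63.9 CPM against 45.3, 54.2 and 44.4 CPM (log2 0.21 ± 0.14; adjusted p = 0.458). In Control replicate 1, the library with Y-linked counts and hardly any Xist, Ndufa1 was the highest of the Control libraries and Ndufb11 lay between the other two. Without that library the log2 fold changes were 0.40 for Ndufa1 and 0.17 for Ndufb11.

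The 19 members not singled out by the naming rule had log2 fold changes of 0.09 to 0.58 and adjusted p-values of 0.0661 to 0.711. In 15 of these the groups did not overlap, against 14.1% of all genes with FAD5x higher. Over all 38 members the coefficient of variation between libraries of a group had a median of 12.2% in FAD5x and 7% in Control. The order of the levels was much the same in both groups. Levels per kilobase of the principal transcript had a median of 59.8 CPM in FAD5x and 46.0 CPM in Control, and their rank correlation across the 38 genes was 0.959, a description over genes that share the same libraries.

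Ndufa12, an accessory subunit of the peripheral arm on chromosome 10, has a processed gene copy that separated the groups more than any subunit did. The copy, Gm15920, is a 402-base insertion without introns on chromosome 5, at chr5:130188395-130188796 on the plus strand of GRCm38, and lies within an intron of Rabgef1. Over its whole length it matches Ndufa12 at 99.5% identity, with 2 substitutions and no gap, so that a read from one can be placed on the other. Its deposited counts were 243, 199 and 198 in FAD5x and 5, 3 and 6 in Control libraries. In CPM that was 10, 9.64 and 10.3 against 0.275, 0.169 and 0.335. Gm15920 was thus 37.6-fold higher (log2 5.23 ± 0.31; adjusted p = 0.000116) and equalled 19.1% of the Ndufa12 count in FAD5x and 0.643% in Control libraries. With each library left out in turn the fold of Gm15920 was 32.1 to 43.9 and its adjusted p at most 0.00179, and without both replicates 1 the fold was 38.8 (adjusted p = 0.0210). Rabgef1, the gene around it on the same strand, stood at a log2 fold change of 0.11 ± 0.13 (adjusted p = 0.668).

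The bases that tell the copy from Ndufa12 are shown because the counting of each gene turns on them. Positions are counted from 1 at the first base of the copy, the Ndufa12 base comes first, and the capital marks the substituted base in a stretch of 29 bases. The substitutions were A99G and T378C.
Ndufa12 around position 99: gaagacaaatatggAaataaatactacga
Gm15920 around position 99: gaagacaaatatggGaataaatactacga
Ndufa12 around position 378: attcatgaatgggtTccaccttcgacacc
Gm15920 around position 378: attcatgaatgggtCccaccttcgacacc
Only reads that span one of these bases, or that run past an end of the copy, can be assigned to 1 of the genes by sequence. Whether the FAD5x reads placed on Gm15920 came from the copy or from Ndufa12 was not tested, since the deposited values are counts per gene.

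Ndufa12 itself, a subunit near the joint of the peripheral and membrane arms, was at 47.0, 53.1 and 58.6 CPM in the FAD5x libraries and 45.1, 36.4 and 39.7 CPM in those of Control, without overlap (log2 0.39 ± 0.14; adjusted p = 0.155). The sum of Ndufa12 and Gm15920 was 57.0, 62.7 and 69.0 CPM against 45.4, 36.5 and 40.0 CPM. With copies summed, Ndufa12 was the third member called, at a log2 fold change of 0.63 ± 0.13 (adjusted p = 0.0433). Another 7 members had a near-identical copy at another locus with a row of its own, whose count was at most 2.74% of that of the member. For the remaining 30 members no copy at another locus had a row in the counts.

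**Figure D3:**
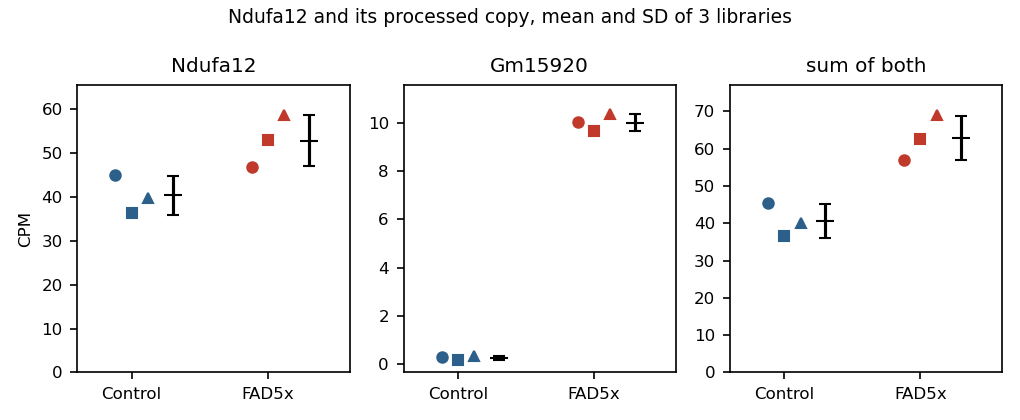
Level in CPM of Ndufa12, of its processed copy Gm15920 and of their sum in each library, with Control in blue, FAD5x in red, circles, squares and triangles for replicates 1, 2 and 3, and black bars for the mean and SD of 3 libraries. Gm15920 is near 10 CPM in all FAD5x libraries and at or below 0.335 CPM in all Control libraries, and adding it moves the Ndufa12 groups further apart.

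Several members overlap another gene, and reads of such pairs cannot be told apart where they overlap. For genes on the same strand this does not depend on the strandedness of the libraries. For genes on opposite strands it holds because that strandedness is not given. Ndufa13 overlaps Yjefn3 on the same strand, whose count was 27.5% of its own and whose log2 fold change was 0.27 ± 0.18 (adjusted p = 0.446). Ndufs1 lies opposite Eef1b2, a translation elongation factor gene with 78.2% of its count (log2 0.50 ± 0.13; adjusted p = 0.0790). Ndufs6 lies opposite Mrpl36, with 80.3% of the Ndufs6 count. Ndufa2 lies opposite Tmco6, with 30.95% of the Ndufa2 count, and Ndufa3 opposite Tfpt, with 41.6% of the Ndufa3 count. For 3 members the partner on the opposite strand had more counts than the member: Braf had 717% of the Ndufb2 count, Shmt2 882% of the Ndufa4l2 count and Rbm10 105% of the Ndufb11 count. The log2 fold changes were −0.07 for Braf, 0.01 for Shmt2 and −0.03 for Rbm10. Ndufb8 overlaps Gm20538, which had 0 counts.

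Promoter sequences are shown for members that differed in response and for those that hold a known motif of respiratory chain genes. RefSeq windows on GRCm38.p6, from 250 bases before to 50 bases after the gene start, were matched for 33 of 38 members. Those of the other 5 were not. The 120 bases before the start are given below, all from the minus strand, with matches to the NRF1 motif (GCGCA, any base, then GCGC, on either strand) in capitals; NRF1 is a regulator of nuclear respiratory genes. Ndufb8 and Ndufa13 are the members called, Ndufs6 had the smallest adjusted p of the others and 1 match, Ndufb4 had 2 matches in this stretch, and Ndufs4 was the member below 0.
Ndufb8, chr19:44555443-44555562: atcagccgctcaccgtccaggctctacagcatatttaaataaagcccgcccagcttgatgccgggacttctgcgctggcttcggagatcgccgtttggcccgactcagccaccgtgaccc
Ndufa13, chr8:69902021-69902140: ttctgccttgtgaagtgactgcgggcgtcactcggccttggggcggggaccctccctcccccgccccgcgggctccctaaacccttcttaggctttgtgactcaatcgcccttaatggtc
Ndufs6, chr13:73328483-73328602: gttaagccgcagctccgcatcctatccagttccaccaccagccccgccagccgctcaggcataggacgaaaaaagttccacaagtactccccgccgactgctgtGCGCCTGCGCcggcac
Ndufb4, chr16:37654369-37654488: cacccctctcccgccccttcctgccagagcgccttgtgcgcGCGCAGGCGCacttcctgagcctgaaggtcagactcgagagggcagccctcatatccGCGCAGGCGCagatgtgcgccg
Ndufs4, chr13:114388095-114388214: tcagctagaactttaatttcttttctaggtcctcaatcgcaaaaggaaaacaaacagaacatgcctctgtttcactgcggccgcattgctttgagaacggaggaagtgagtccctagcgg

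The NRF1 motif, searched on both strands of the whole 300-base window, was found in 7 of 33 members (21.2%) and in 5.19% of the 27025 genes with a window. The members were Ndufa5, Ndufa6, Ndufa8, Ndufa11, Ndufb4, Ndufs5 and Ndufs6, so neither called member held it. The YY1 motif AAGATGGCG was found in 5 members (15.2%), each time after the start, and in 1.64% of all genes. Those members were Ndufa9, Ndufc1, Ndufs4, Ndufs6 and Ndufs7, which range from the member below 0 to one close to the largest difference. The ETS motif CCGGAAG was found in 4 members (12.1%) and 9.93% of all genes, and the oestrogen-related receptor motif TCAAGGTCA in 0 members and 0.466% of all genes. The GC content of the stretches shown was 45.8% for Ndufs4 and 60% to 69.2% for the others. A match describes letters only.

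The 7 complex I subunits encoded by the mitochondrial genome, which form the membrane core that pumps protons, gave other values than the nuclear ones. Of these, 4 were above 0 and 3 below, 0 passed the test, and the groups overlapped in all 7. Their median log2 fold change was 0.01. The most abundant, mt-Nd4, was at a log2 fold change of 0.04 ± 0.23 (adjusted p = 0.949) and mt-Nd1 at 0.34 ± 0.22 (adjusted p = 0.431). The summed level of the 7 was 22087 to 28831 CPM in FAD5x and 18664 to 29075 CPM in Control libraries, so the spread within Control covered the FAD5x range. Counts of mt-Nd3, mt-Nd4 and mt-Nd4l are uncertain, since nuclear copies at 99.7% to 100% identity have rows of their own, with counts equal to 91.8%, 48.0% and 99.4% of those of the member. The difference between the nuclear and the mitochondrial set was not tested.

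Assembly factors put the modules of the complex together and are not part of the finished enzyme. Of 18, 15 were above 0 and 0 passed the test, with a median log2 fold change of 0.17. In 7 the groups did not overlap, against 14.1% of all genes with FAD5x higher. With length and GC trends taken out the median was 0.09 and 14 of 18 were above 0. The most abundant were Dmac2 (log2 0.51 ± 0.15; adjusted p = 0.1), which acts on the distal membrane arm, and Acad9 (log2 0.02 ± 0.12; adjusted p = 0.949), a flavoprotein of the proximal membrane arm assembly.

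The nuclear subunits of complexes II to V, the rest of the respiratory chain and the ATP synthase, were above 0 in 38 of 41. Their median log2 fold change was 0.20. With length and GC trends taken out it was 0.07, and 27 of 41 were above 0. The groups did not overlap in 12 of 41, or 29.3%. That held for 71.1% of the 38 members, for 72.2% of the 36 without Ndufa4 and Ndufa4l2, and for 14.1% of all genes. Cox5b, a nuclear subunit of cytochrome c oxidase, was the 1 of 41 called, where 1.76% of all genes were called higher. It was 1.5-fold higher (log2 0.59 ± 0.13, adjusted p = 0.0458). The call held with DESeq2 (adjusted p = 0.00348) and with relative log expression or upper quartile scaling. It was lost with limma-voom (0.0525), library totals only (0.0783), length and GC trends taken out (0.110, log2 0.415) and a replicate block (0.166). Its adjusted p passed the threshold without FAD5x replicate 2 (0.0446) and not without any other single library (0.0618 to 0.185). By library, the median of complexes II to V stood 0.01, 0.32 and 0.28 above the Control mean in FAD5x replicates 1, 2 and 3, so that FAD5x replicate 1 lay among the Control libraries. That library's complex I median, at 0.19, lay above them.

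Regulators of mitochondrial biogenesis were above 0 in 4 of 12, with a median log2 fold change of −0.03, and 0 passed the test. The coactivators Ppargc1a (log2 −0.48 ± 0.17; adjusted p = 0.149), Ppargc1b (−0.54 ± 0.23; 0.224) and Pprc1 (−0.35 ± 0.15; 0.223) were the 3 genes at an unadjusted p under 0.05. All had lower means in FAD5x, and they were named after their values were seen. Of all 17074 genes tested, 1725 were lower at this unadjusted p. For each of the 3, Control replicate 1 was the highest library. Ppargc1a was at 41.1, 44.1 and 46.1 CPM in the FAD5x libraries and 75.5, 48.4 and 59.6 CPM in those of Control. Ppargc1b was at 8.86, 9.06 and 11.29 CPM against 18.8, 10.96 and 12.7 CPM, with overlap. The groups of Ppargc1a and Pprc1 did not overlap. Values without Control replicate 1 are not given for these genes. Other mitochondrial genes, for protein import, the outer membrane porins and the citrate cycle, were above 0 in 17 of 20, with a median of 0.13 and 0 called. Vdac1, a porin among the 2 most abundant of them, was at a log2 fold change of 0.06 ± 0.14 (adjusted p = 0.847).

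Among 9 genes for complex I turnover and the supply of NADH, 8 were above 0. Of the 9, 1 was called higher, as were 1.76% of all genes. Nnt, the inner membrane transhydrogenase that uses the proton gradient to pass electrons from NADH to NADP, rose 1.69-fold, at 29.6, 26.4 and 26.6 CPM in the FAD5x libraries and 16.0, 16.1 and 16.9 CPM in those of Control (log2 0.76 ± 0.13; adjusted p = 0.0211). Its adjusted p was 0.0648 without FAD5x replicate 1, 0.110 without Control replicate 1, 0.103 without Control replicate 2 and 0.0771 without Control replicate 3. As background, some C57BL/6 substrains carry a partial deletion of Nnt, and the substrain of either group is not given.

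**Figure D4:**
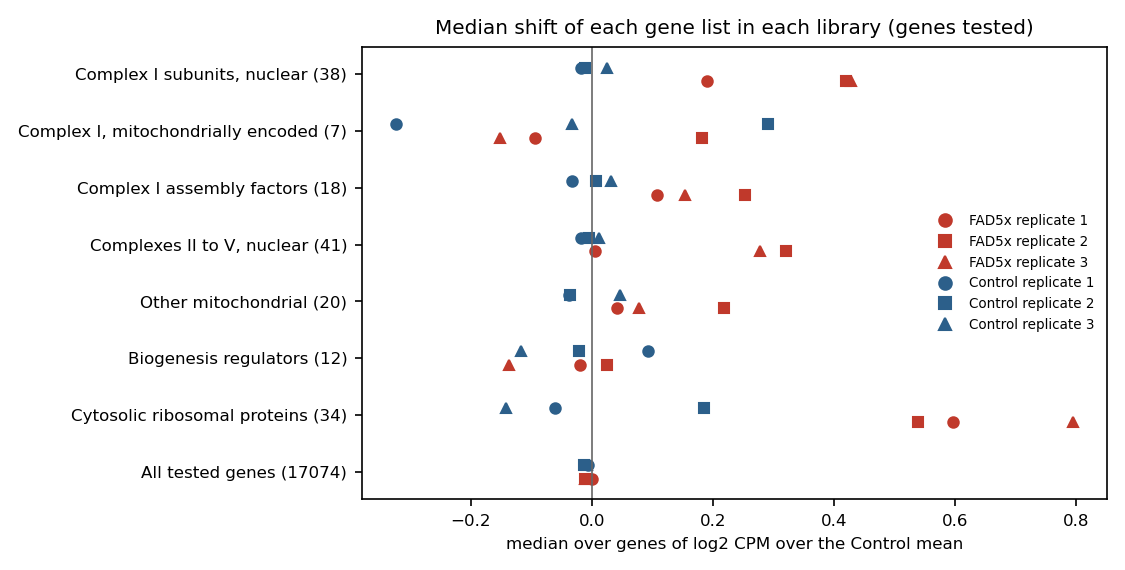
Median, over the genes of each list, of log2 CPM over the Control mean in each library, with the number of genes tested in brackets. Red marks are FAD5x, blue marks Control, and shapes give the replicate number. All FAD5x libraries lie above all Control libraries for the nuclear complex I subunits, the assembly factors and the cytosolic ribosomal proteins. In all other lists drawn, complexes II to V among them, the groups overlap.

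Markers of cell types moved between the libraries as well. The 8 neuron markers had a median log2 fold change of −0.01, with 0 called, and their summed level was 6027 to 9201 CPM in FAD5x and 6127 to 7149 CPM in Control libraries. All 7 oligodendrocyte markers were above 0 (median 0.53, Mobp and Myrf called higher), with 3858 to 7494 CPM in FAD5x and 2742 to 4012 CPM in Control libraries. Without both replicates 1 the oligodendrocyte median was 0.08 and 4 of 7 were above 0. All 7 microglia markers were above 0 (median 0.68, C1qa called higher), with 352 to 762 CPM in FAD5x and 242 to 365 CPM in Control libraries. Without both replicates 1 the microglia median was 0.36 and 6 of 7 were above 0. All 4 meningeal fibroblast markers were below 0 (median −2.49; Col3a1 called lower), with 7.46 to 25.2 CPM in FAD5x and 50.5 to 173 CPM in Control libraries. Astrocyte markers had a median of −0.22 with 0 of 7 called, but Gfap, the marker of reactive astrocytes, was at 1508, 129 and 914 CPM in the FAD5x libraries and 119 to 193 CPM in those of Control (log2 2.41 ± 0.81; adjusted p = 0.168). Oligodendrocyte precursor markers were below 0 in 4 of 4 (median −0.52; Gpr17 called lower, adjusted p = 0.0147), as were pericyte and smooth muscle markers (median −0.84; 0 called). Choroid plexus markers had a median of −1.20, blood cell markers of −0.14, endothelial markers of 0.01 and cortical layer markers of 0.01, each with 0 called. Striatal neuron markers had a median of 2.09 with 0 called, and of −0.10 without both replicates 1. RNA quality and nuclear RNA genes had a median of 0.07 with 0 of 4 called, but Neat1 was at 179.6, 35.6 and 133 CPM against 20.7 to 23.3 CPM, without overlap (log2 2.42 ± 0.54; adjusted p = 0.0681). No list had a marker at 0 counts in all libraries. The neuron, oligodendrocyte and microglia sums were highest in FAD5x replicate 2, 1 and 1. The complex I sum was 2443 CPM in FAD5x replicate 3 and nearly the same, 2420 CPM, in FAD5x replicate 2. The part of cell composition and RNA state in the subunit values was not tested.

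Transcript length moved with the fold changes of all genes. The members had a median principal transcript of 921 bases against 2860 bases for all genes tested. Genes of 500 to 1000 bases had a median log2 fold change of 0.21, and the 21 members in that range one of 0.42. For 1000 to 2000 bases the medians were 0.16 for all genes and 0.27 for 12 members. Genes over 8000 bases had a median of −0.27. Across genes, the rank correlation of log2 fold change with length was −0.38 over the 38 members and −0.29 over 16989 genes. When length and GC trends were taken out of each library, the members' median log2 fold change was 0.22 instead of 0.35, 31 of 38 were above 0 and Ndufb8 was the 1 member called (log2 0.62; adjusted p = 0.0309), while Ndufa13 was at 0.32 (adjusted p = 0.160). The length taken for these trends was that of all exons of a gene combined, not that of the principal transcript. Cytosolic ribosomal protein genes, another set of short messages, had a median of 0.65 with 16 of 34 called higher, and their median was 0.51 with the trends taken out.

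**Figure D5:**
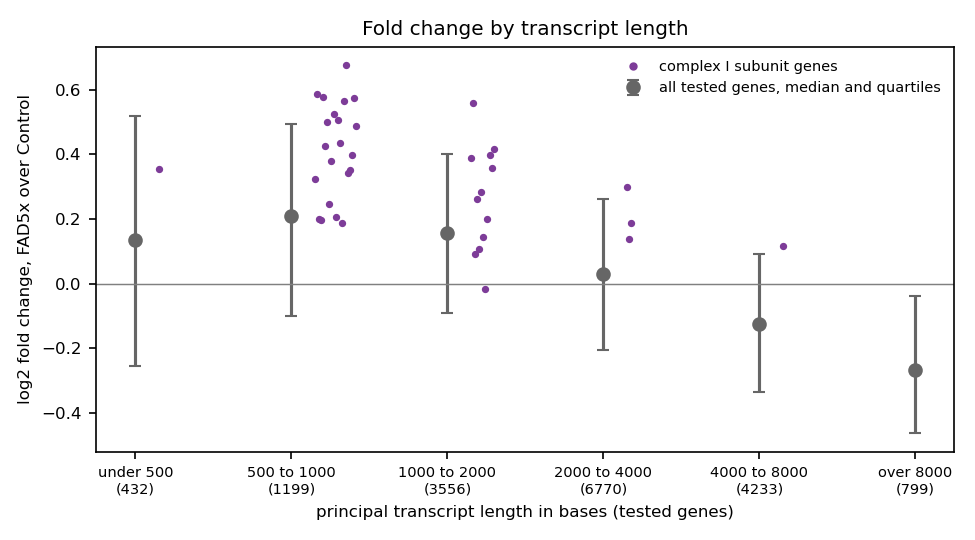
Log2 fold change, FAD5x over Control, by length of the principal transcript. Grey points and bars are the median and quartiles of all tested genes in each length range, whose number is in brackets, and purple points are the complex I members. The grey medians fall from 0.21 at 500 to 1000 bases to −0.27 above 8000 bases, and most members lie above the grey median of their range.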

How the data were processed

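The authors deposited raw counts per gene for 6 cortex libraries. The processing notes of the submitters name STAR 2.7.11b, cutadapt and featureCounts, then limma and edgeR 3.38.4, and the build GRCm39. Their order, the strandedness and the treatment of reads with several matches are not given in the sources used here. Of 47729 lines, 1 with a cell that was not a number was left out. Symbols, lengths and copies came from GENCODE M21 (GRCm38), with 47223 identifiers matched and 505 not, and promoters from RefSeq (GRCm38.p6). Of 252 list entries, 19 were matched by synonym and 3 not found.

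The test was that of edgeR 4.0.16, run in R 4.3.3 (filterByExpr, trimmed mean of M values, quasi-likelihood F-test with robust prior, two-sided), FAD5x against Control with no covariate, with Benjamini-Hochberg adjustment over 17074 genes at 0.05. The biological coefficient of variation was 23.3%, and tested genes held 99.8% of counts. CPM use the scaled library sizes. Per kilobase means per principal transcript length. The length and GC trends used the combined length of all exons of a gene and the GC content of its longest transcript. Copies were found with blastn 2.17.0 at another locus, at 95% identity over 50% of either transcript.

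The members and lists were chosen with earlier results of these data known. The naming rule took called members, nuclear core subunits, the extremes of each structural group, X-linked members, those with the highest and lowest level per length, members with a copy at 10% or more of their count and, in other lists, up to 4 called genes or the 2 most abundant. Some genes that this rule takes are counted but not reported singly here. Alternatives covered limma-voom (limma 3.58.1), DESeq2 1.42.0, scaling, filters, a replicate block, length and GC trends, copies summed, thresholds and libraries left out or summed. The main edgeR fit was also run on simulated counts with known changes and a common dispersion, and the outcome is not given here.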

Additional observations from a re-analysis of the deposited data

How the results depend on the processing

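The number of subunits risen, 2, was 2 under relative log expression or upper quartile scaling, with mitochondrially encoded genes left out, with protein-coding genes only and with a filter at 1 CPM. It was 3 with copies summed, 7 with DESeq2 or at an adjusted p of 0.1, 5 without a filter on low counts, 1 with limma-voom, with library totals only or with length and GC trends taken out, and 0 at an adjusted p of 0.01. With single libraries left out it was 0 to 1, and 0 without both FAD5x replicate 1 and Control replicate 1, an alternative chosen after the data were seen. No subunit fell under any of these. Fewer libraries leave fewer degrees of freedom, and the count over all genes, 537, then lay between 34 and 989. The members' median log2 fold change was 0.31 to 0.41 except with length and GC trends taken out (0.22). Replicate numbers follow the sample titles, not the numbers in the library names. Deviations of same-numbered libraries from their group means correlated at −0.04, −0.09 and −0.31, and none correlated best with its own number. With so few libraries per group this cannot show whether any were paired, and pairing by the numbers in the library names was not tested. With a replicate block the number risen was 0, and 72 genes were called in all. With the block and length and GC trends taken out together, it was 0 and the median 0.22.

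With length and GC trends taken out, without and then with the block, signs turned for Ndufs3 (−0.0393 and −0.0382), Ndufs8 (−0.029 and −0.0329) and Ndufc1 (−0.0172 and −0.0047), for the mitochondrially encoded median (−0.081 and −0.082), and, without the block, for Ndufb11 (−0.0004) and the regulators' median (0.0002). Ndufa9 and Ndufa3 also were below 0 in both, at −0.0409 and −0.0132 without the block. Ndufs4 was 0.009 with upper quartile scaling, −0.049 to 0.0578 with single libraries left out (above 0 without FAD5x replicate 1 or Control replicate 2) and 0.037 without both replicates 1. Ndufc1 was −0.0506 to 0.232 with single libraries left out (below 0 without Control replicate 1) and −0.0063 without both replicates 1. The mitochondrially encoded median was −0.1435 to 0.1907 (below 0 without FAD5x replicate 2 or Control replicate 1) and −0.0793 without both, and −0.0207 with FAD5x replicates 1 and 2 summed as 1 sample, also chosen after the data were seen. The cause was not tested. The mitochondrially encoded list has no value where its genes are left out. Ndufa4l2, with 266 counts over 6 libraries, had the least depth of the members and the widest SE, 0.32.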
